A study of Caenorhabditis elegans with 2 samples.

Results

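The distal intergenic regions bound by LIN-29::EGFP were those whose summit lay outside every protein-coding gene body, farther than 1000 bp upstream of any protein-coding 5′ end and farther than 500 bp from any tRNA, snRNA or snoRNA gene. They numbered 190 of the 1023 regions left when overlapping peaks of the 4 thresholded lists were merged. An anti-GFP antibody was used for chromatin immunoprecipitation and sequencing (ChIP-seq) of whole Caenorhabditis elegans of strain RW12227, in which the lin-29 gene on chromosome II carries a TY1::EGFP::3xFLAG tag inserted by CRISPR (st12227). All animals were L4 larvae collected at 49 hours after growth from starved, synchronised L1 larvae. The study holds 1 group of 2 biological replicates, both of the tagged strain, and no control library was analysed here, so signal that the antibody or the chromatin gives without the tag could not be measured. The lists carry no read counts, and the depth behind each peak is unknown.

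LIN-29 is a zinc finger transcription factor at the end of the heterochronic pathway, the chain of regulators that times larval stages, and it drives the switch of the epidermis to its adult form. In the compact worm genome most known regulatory elements lie close to the 5′ ends of genes, and intergenic elements farther away include enhancers, sites beyond the 3′ ends of genes and, on X, the recruitment sites of the dosage compensation complex, which lowers X transcription in hermaphrodites. Whole animals were used, so a region can be occupied in any tissue and the lists do not say which.

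Copies of a pair of repeats and single-copy X regions made up much of the strong end of the distal set, and several of the latter share an 8-letter motif. A further 8-letter motif led on the autosomes. They are shown here because the values described below turn on them. All coordinates are ce11, which is the WBcel235 assembly, 1-based, and the letters are those of the RefSeq genome of that assembly, written 5′ to 3′.

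The first repeat is shown for 3 of its 5 distal copies, as the 201 bases centred on each summit. Capitals mark stretches of 36 bases or more that at least 2 distal regions share exactly.
Beyond K08F11.1, chrIV:4727937-4728137, plus strand: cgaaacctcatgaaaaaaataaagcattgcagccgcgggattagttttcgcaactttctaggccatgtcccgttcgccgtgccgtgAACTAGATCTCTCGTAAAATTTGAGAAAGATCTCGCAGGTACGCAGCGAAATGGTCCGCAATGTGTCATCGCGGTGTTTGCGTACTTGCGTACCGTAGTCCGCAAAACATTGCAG
Between miro-1 and K08F11.1, chrIV:4720609-4720809, minus strand: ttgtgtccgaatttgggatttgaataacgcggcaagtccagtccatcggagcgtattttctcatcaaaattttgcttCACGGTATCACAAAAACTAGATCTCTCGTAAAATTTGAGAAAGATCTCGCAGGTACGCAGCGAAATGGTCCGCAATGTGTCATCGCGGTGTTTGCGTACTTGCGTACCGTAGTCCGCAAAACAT
Between djr-1.2 and otpl-2, chrV:4063616-4063816, plus strand: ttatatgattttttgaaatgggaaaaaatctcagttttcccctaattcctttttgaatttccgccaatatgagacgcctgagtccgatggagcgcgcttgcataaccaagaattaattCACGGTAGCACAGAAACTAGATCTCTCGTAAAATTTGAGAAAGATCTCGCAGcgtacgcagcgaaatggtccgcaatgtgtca

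The second repeat is shown in the same way for 3 of its 5 distal copies.
Between K07D4.2 and gadr-4, chrII:4047984-4048184, plus strand: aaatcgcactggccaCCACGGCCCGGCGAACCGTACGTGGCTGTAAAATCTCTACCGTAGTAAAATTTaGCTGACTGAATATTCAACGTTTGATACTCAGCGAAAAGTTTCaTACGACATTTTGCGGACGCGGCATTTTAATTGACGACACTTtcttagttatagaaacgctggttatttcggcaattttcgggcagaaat
Between Y116A8A.150 and map-2, chrIV:16845479-16845679, plus strand: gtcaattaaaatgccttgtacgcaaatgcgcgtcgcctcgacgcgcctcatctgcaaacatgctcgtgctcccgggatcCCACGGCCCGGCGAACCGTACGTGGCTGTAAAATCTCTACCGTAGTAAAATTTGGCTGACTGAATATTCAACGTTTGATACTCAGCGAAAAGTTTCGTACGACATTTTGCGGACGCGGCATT
Between zip-11 and F42A6.5, chrIV:3313412-3313612, minus strand: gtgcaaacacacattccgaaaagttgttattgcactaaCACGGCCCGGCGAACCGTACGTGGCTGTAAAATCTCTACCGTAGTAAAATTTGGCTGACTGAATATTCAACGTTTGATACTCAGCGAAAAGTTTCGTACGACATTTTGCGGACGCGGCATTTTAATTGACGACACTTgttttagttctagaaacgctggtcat

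The 5 strongest carriers of the X motif are shown as the sequence within 50 bp of the summit. Capitals mark GCGNAGGG on the strand shown, in which N is any base.
Between W04G3.11 and W02H3.3, chrX:11094146-11094246, minus strand: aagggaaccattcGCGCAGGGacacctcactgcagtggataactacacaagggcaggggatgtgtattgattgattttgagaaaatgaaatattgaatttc
Between F20B6.9 and hpk-1, chrX:4209230-4209330, plus strand: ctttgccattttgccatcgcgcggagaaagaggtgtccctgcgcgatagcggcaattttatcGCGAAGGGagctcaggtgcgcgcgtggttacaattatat
Between gtr-1 and F25E2.2, chrX:806641-806741, plus strand: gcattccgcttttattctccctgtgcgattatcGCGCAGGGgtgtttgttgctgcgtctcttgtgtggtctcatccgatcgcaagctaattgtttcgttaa
Between ZK899.6 and gap-2, chrX:9465797-9465897, plus strand: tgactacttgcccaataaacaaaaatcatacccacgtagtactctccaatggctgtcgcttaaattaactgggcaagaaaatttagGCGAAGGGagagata
Between adm-2 and K02D3.1, chrX:13700822-13700922, minus strand: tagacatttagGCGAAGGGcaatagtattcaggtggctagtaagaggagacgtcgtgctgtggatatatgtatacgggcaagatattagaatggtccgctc

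For the autosomal motif, 3 regions are shown likewise, with AGACGCAG in capitals.
Between T04C4.3 and fnip-2, chrIV:2219590-2219690, minus strand: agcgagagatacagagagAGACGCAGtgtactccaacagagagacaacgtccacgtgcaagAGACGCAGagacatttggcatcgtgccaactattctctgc
Between Y54G2A.11 and Y54G2A.12, chrIV:2774644-2774744, plus strand: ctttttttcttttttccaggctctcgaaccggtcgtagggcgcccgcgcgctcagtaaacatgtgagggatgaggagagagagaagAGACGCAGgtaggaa
Between F57A8.1 and yif-1, chrV:10049355-10049455, plus strand: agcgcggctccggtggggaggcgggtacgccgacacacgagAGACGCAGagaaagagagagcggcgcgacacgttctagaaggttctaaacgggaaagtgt

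Of the 190 distal regions, 150 were in the list from both replicates pooled, 143 in the more conservative list of both, 103 in the list of replicate 1 and 69 in the list of replicate 2. Both replicates' own lists held 50 of them, or 26.3% (95% Wilson interval 20.6 to 33.0%), and 46 were in all 4 lists. Neither replicate's own list held 68, which therefore rest on the combined replicates. Among promoter regions 33.2% (28.5 to 38.1%) were in both replicates' lists, among intronic regions 22.1% (16.2 to 29.5%). The share was 27.4% (21.8 to 33.7%) near small RNA genes and 9.35% (5.16 to 16.35%) in exons. The exonic interval lies under the distal one, and the other intervals overlap the distal one. All of them cover counting error over regions only.

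The signal, which is the value the authors' peak caller gave to each peak and whose scaling is not stated, had a median of 78.0 over the 150 distal regions of the pooled list (95% interval of the median 71.9 to 84.9). The quartiles were 65.7 and 121, and the range ran from 26.2 to 625. The median was 83.9 in promoter regions, 82.6 near small RNA genes, 75.7 in introns and 64.5 in exons, and the distal median lay among them. In the pooled list 23 distal regions exceeded a signal of 200, which is 12.1% (8.20 to 17.5%) of all 190, against 8.77% (6.28 to 12.1%) of promoter regions, 4.25% (2.25 to 7.87%) of those near small RNA genes and 1.34% (0.369 to 4.76%) of intronic ones. The mark of 200 was chosen after the values were seen, and the distal and promoter intervals overlap. The strongest of all 855 regions with a pooled signal was distal.

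**Figure D1:**
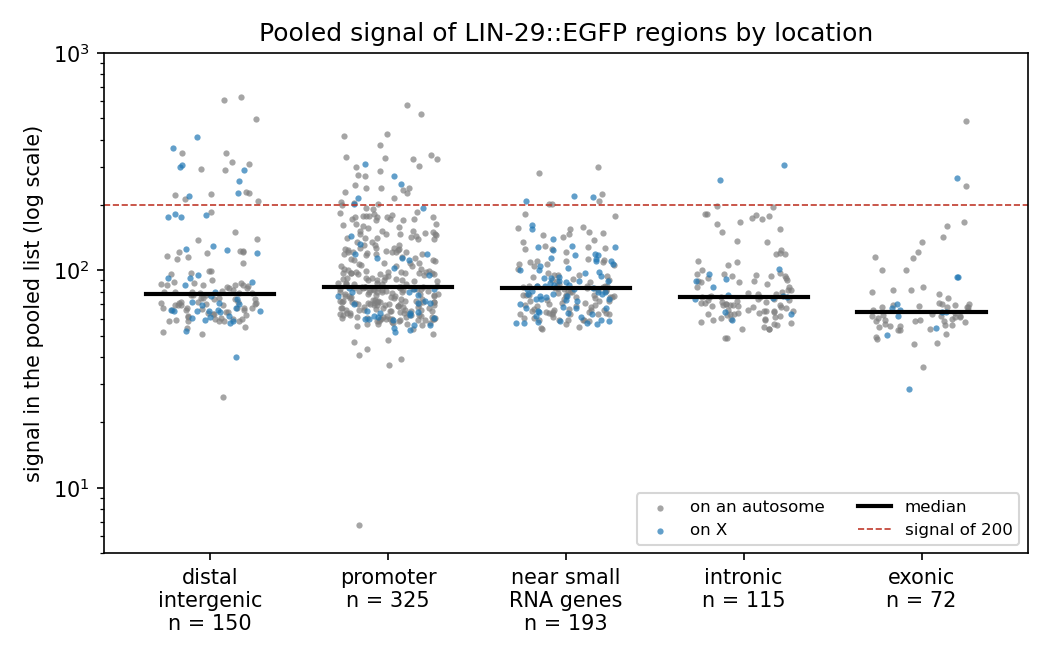
Signal in the pooled list on a log scale for each region, by the location of its summit; points are regions, blue on X and grey on autosomes, and black bars are medians. The distal median of 78.0 lies among those of the other locations, while 23 distal regions lie above the dashed line at 200.

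Candidates are merged peaks of the ranked lists, which also hold peaks that fail the threshold. All 190 distal regions overlapped a candidate in replicate 1 and 187 did so in replicate 2. Across those 187, the Spearman correlation of signal between the replicates was 0.44, with 0.63 over 358 promoter regions and 0.36 over 139 intronic ones; regions share their library and are not independent, so these are descriptions. The distal value depended on the lists: it was 0.57 in the pooled list alone, 0.60 in the conservative list alone, 0.80 in the list of replicate 1 and 0.86 in that of replicate 2. Of the 20 strongest distal regions by pooled signal, 19 were among the 20 strongest distal regions of replicate 1, and 19 among those of replicate 2. The pooled list is made from both replicates, so part of this overlap is built in. The 20 strongest were in all 4 lists. Among the other 130 distal regions of the pooled list, 26 were in all 4.

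**Figure D2:**
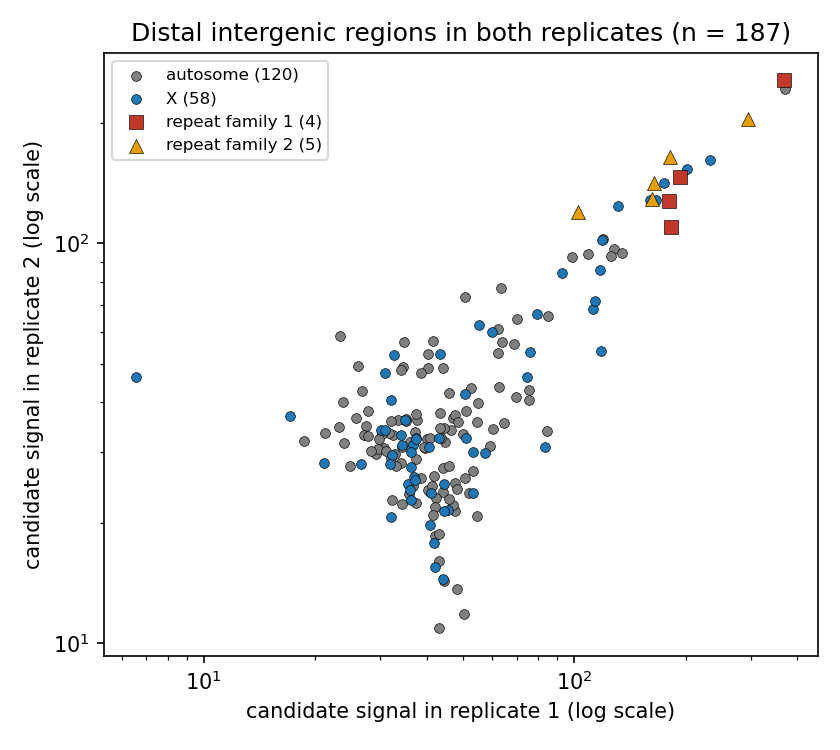
Candidate signal of replicate 2 against replicate 1, both on log scales, for the 187 distal regions with a candidate in both; squares and triangles mark the copies of the repeat families and blue points X. The strong regions lie along one line, and the weaker ones form a cloud with little order.

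Of the 11267 distal candidates in the pooled ranked list, 149 reached the pooled thresholded list, which is 1.32% (1.13 to 1.55%). Over candidates of every location the share was 1.56%, just above the upper bound for distal candidates. Promoter candidates were kept at 3.41% (3.06 to 3.79%) and intronic ones at 0.734% (0.612 to 0.880%), those near small RNA genes at 19.96% (17.6 to 22.6%) and exonic ones at 0.418% (0.332 to 0.525%). The threshold is an irreproducible discovery rate (IDR) of 0.01, which the lists hold as a score of 830. The distal candidate just inside it, at chrIII:7155644-7155933 between ogt-1 and nuo-4, had a score of 834 and a signal of 59.7, and the one just outside, at chrV:7432811-7433100, had a score of 828 and a signal of 60.4. At the promoter border, counting only regions upstream of a 5′ end, the nearest distal region lay 1039 bp upstream and the farthest promoter region 1000 bp upstream.

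Many of the strongest distal regions were copies of repeats. The single-copy share, which is the percentage of 36-base words within 100 bp of the summit found once in the genome, was under 50% in 17 distal regions, or 8.95% (5.66 to 13.9%), against 6.03% (4.01 to 8.96%) of promoter and 12.7% (8.32 to 19.1%) of intronic regions. A pair of families of related copies, recognised after the values were seen by the 36-base words that distal regions share, held 5 distal regions each. Of the 20 strongest distal regions, 9 belonged to these families, and the remaining family member had a signal of 115.9. Outside the families 14 of 180 distal regions exceeded a signal of 200, or 7.78%. The share of promoter regions was 8.77%, but no repeat families were sought or left out there.

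The strongest region of the first family, chrIV:4727926-4728164, lay 2724 bp from K08F11.1 and 9521 bp from fbxb-78, a gene of the F-box B family. Its signal was 625 in the pooled list, 368.5 in replicate 1 and 255.6 in replicate 2. A second copy, chrIV:4720603-4720785 between miro-1 and K08F11.1, had signals of 347, 193 and 146.5 in the same order. Between them and nearer to K08F11.1, at 297 bp from it, lay chrIV:4725483-4725721 with 608, 371 and 244, whose repeated sequence is shared with another distal region and not with this family. These 3 regions fell within 7328 bp of chromosome IV and were all high in both replicates. The copy at chrIV:4184854-4185026, 586 bp from K08D10.11, had signals of 314, 180 and 128. The copy at chrI:2639697-2639966, 413 bp from F40E3.3, had 292, 183 and 110. The lowest copy, chrV:4063571-4063895 inside the pseudogene D1065.2 and 8591 bp from djr-1.2, had 115.9 in the pooled list, 70.8 in replicate 1 and no candidate in replicate 2. Its shared stretch was 52 bases long in the 201-base window, against 124 in the second copy shown.

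The second family was led by chrII:4047963-4048174, 2588 bp from K07D4.2, with signals of 497 in the pooled list, 295 in replicate 1 and 205 in replicate 2. The copy at chrIV:16845482-16845698 lay 2683 bp from map-2, which encodes a methionine aminopeptidase, and had 349, 181.5 and 164. The copy at chrIV:9196316-9196509 lay 341 bp from C46C2.7 and 3686 bp from wnk-1, a kinase gene of ion and osmotic balance, and had 308, 165 and 142. The copy at chrIV:3313434-3313601, 323 bp from zip-11, a gene of the bZIP transcription factor family, had 290, 163 and 129. The copy at chrIV:15530631-15530894 between ari-1.4 and Y73F8A.35 had 228, 103 and 120. All 5 were in all 4 lists, and 4 of them were on chromosome IV. A strong region outside both families with a low single-copy share, 50.6%, was chrI:316125-316394 between imb-3, an importin gene, and xpo-2, an exportin gene, with a pooled signal of 223.

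Not every genomic copy was listed. The first family had 8 places in the genome with at least 10 of its shared 36-base words, and 6 overlapped a region in the lists, 5 of them distal and 1 intronic. A distal copy at chrV:17519291-17519419 had 94 shared words, as many as the copies at 4184850 and 4720604 on chromosome IV, and no candidate in the pooled ranked list. The second family had 9 such places, of which 6 were in the lists. Its distal copy at chrV:19770956-19771090 had 100 shared words and no candidate, and the intronic copy at chrIII:269721-269857 had a candidate with a signal of 37.4 and a score of 134, under the threshold. How reads that match several copies were placed is not given in the sources used here, and its part in these values was not tested.

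The X chromosome held 59 of the 190 distal regions, or 31.1% (24.9 to 37.95%), the largest number of the 6 chromosomes. It carries 22.5% of the distal intergenic sequence and 23.4% of the distal candidates, both under the interval. With the pooled list alone the X share was 29.3% (22.6 to 37.1%), which holds the share of candidates, and in the list of replicate 1 it was 29.8% (21.9 to 39.2%), which holds both. Of the X distal candidates 1.67% (1.25 to 2.23%) were in the pooled list, an interval that holds the 1.32% of all distal candidates. The density was 10.6 distal regions per Mb of distal sequence on X, 10.8 on chromosome I and between 5.35 and 6.85 on the other 4. Among the other locations, X held 13.4% of promoter, 15.4% of intronic and 36.8% of the regions near small RNA genes. The median pooled signal was 78.0 on X and 78.0 on the autosomes, and the upper quartile was 176 on X and 112 on the autosomes.

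**Figure D3:**
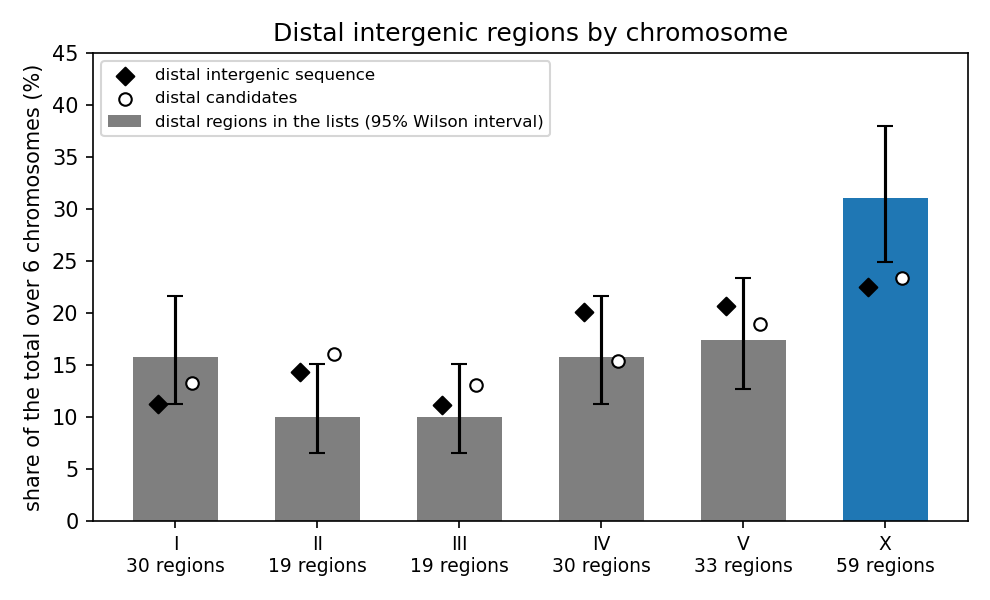
Share of the 190 distal regions on each chromosome, as bars with 95% Wilson intervals, with the shares of distal intergenic sequence (diamonds) and of distal candidates (circles). The X bar, at 31.1%, has its lower bound at 24.9%, above both background shares of X, which it is not with the pooled list alone or in the list of replicate 1, and the bars of II, III, IV and V lie under their share of the sequence.

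A motif was common at the strong X regions. Flanks are 2 equally long windows placed 500 bp left and right of the summit. The 8-letter words that were frequent within 50 bp of the X summits and rare in their flanks overlapped into TCGCGCAGGGA, and a further word was GCGAAGGG. As background, TCGCGCAGGGA resembles the motif known from the X recruitment sites of the dosage compensation complex. The files hold no list of those sites, so whether these regions are among them was not tested. Both words fit GCGNAGGG, searched on both strands and chosen after these values were seen. It occurred in 9 of the 59 X distal regions, or 15.3% (8.24 to 26.5%). The share was 34.8% (18.8 to 55.1%) without replicate 1, in the 23 X regions of the list of replicate 2, and 25.8% (13.7 to 43.2%) without replicate 2, in the 31 of replicate 1. It occurred in 1 of 118 flank windows, or 0.847% (0.150 to 4.64%), and in 12 of 2575 X distal candidates outside the lists, or 0.466% (0.267 to 0.813%). It occurred in 0 of 131 autosomal distal regions, whose interval reaches up to 2.85%, within 50 bp of the summit, and in 7 of the 163 regions of other locations on X, or 4.29% (2.10 to 8.598%). That last interval overlaps the one of the X distal regions. By location on X the motif occurred in 2 of 23 intronic regions, or 8.70% (2.42 to 26.8%), and 1 of 13 exonic ones, or 7.69%. It occurred in 2 of 49 promoter regions, or 4.08%, and 2 of 78 near small RNA genes, or 2.56%. In the whole genome it occurs 22.5 times per Mb on X and 18.6 times per Mb on the autosomes.

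Carriers of the X motif were among the stronger regions. All 9 were in the pooled list, with signals from 92.0 to 409 and a median of 227, and 7 were in both replicates' lists. The 44 X distal regions with no match within 100 bp had a median of 68.6 over the 30 in the pooled list, and 6 of the 44 were in both replicates' lists. Within 100 bp of the summit the motif occurred in 15 of the 59 X regions and in 3 of the 131 autosomal ones. Among the 10 strongest X distal regions 8 had a match within 100 bp, and among the other 49 there were 7. The median GC content within 50 bp was 45.5% in the carriers and 48.02% in the X regions with no match within 100 bp. No test was made of these differences, because the motif and the comparison were chosen on the same regions.

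The strongest carrier, chrX:11094007-11094349, lay between the 3′ ends of W04G3.11 and W02H3.3 and had signals of 409 in the pooled list, 232 in replicate 1 and 162 in replicate 2. The region chrX:4209188-4209434 lay 1291 bp from hpk-1, which encodes a homeodomain-interacting protein kinase, and had 367.5, 201 and 153. It held GCGAAGGG on the strand shown and GCGCAGGG on the opposite one. The region chrX:806588-806774, 300 bp from F25E2.2, had 299, 166 and 128. The region chrX:9465773-9465951, 1106 bp from ZK899.6 and 6623 bp from gap-2, a gene for a Ras GTPase-activating protein, had 288.5, 160 and 129. The region chrX:13700729-13701006 between adm-2, of the ADAM metalloprotease family, and K02D3.1 had 227, 119 and 102. The single-copy share of these 5 regions was 100%. The weaker carriers were found 2961 bp from hlh-29, which encodes a basic helix-loop-helix factor (181), 1248 bp from cdk-4, the G1 cyclin-dependent kinase (120.5), 1787 bp from dpy-23, a clathrin adaptor subunit (95.5), and between srg-64, at 134 bp, and lin-15A (92.0). Among the strong X regions with no match within 50 bp were chrX:16056457-16056737 with 304, 175 and 142, and chrX:16681968-16682237 with 259, 131 and 124. The latter has a match within 100 bp of its summit, and the former has none.

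At the autosomal distal regions a different motif led. Among the 116 autosomal distal regions with a single-copy share of 50% or more, the leading 8-letter word was AGACGCAG, within an overlapping run AGAGACGCAGA. It was chosen, as was the comparison with X, after these values were seen. The word occurred in 16 of the 116, or 13.8% (8.67 to 21.2%), in 1 of 232 flank windows, or 0.431% (0.0761 to 2.40%), and in 1.59% (1.34 to 1.88%) of 8505 autosomal distal candidates outside the lists. It occurred in 1 of the 59 X distal regions, or 1.69% (0.300 to 8.996%), and in 0.583% (0.353 to 0.959%) of X distal candidates outside the lists. Within 100 bp of the summit it occurred in 5 of the 59 X distal regions, or 8.475% (3.67 to 18.35%). The same window held it in 26 of all 131 autosomal distal regions, or 19.85% (13.9 to 27.5%), and these intervals overlap. Among regions of other locations, 57 of 670 on the autosomes held it, or 8.51% (6.62 to 10.9%), an interval that overlaps the autosomal distal one. On X, 11 of 163 such regions did, or 6.75% (3.81 to 11.7%). In the whole genome it occurs 29.4 times per Mb on X and 64.1 times per Mb on the autosomes. Carriers had a median pooled signal of 86.3 over 15, with a range from 58.5 to 229. Regions with no match within 100 bp had a median of 71.9 over 70, and they included 4 copies of the repeat families. The strongest carrier, chrIV:2219504-2219774, lay between T04C4.3 and fnip-2, a gene for a folliculin-interacting protein, and had 229 in the pooled list, 128.5 in replicate 1 and 96.7 in replicate 2. The word occurs 2 times within 50 bp of its summit. The carrier at chrI:16842-17111 between the 3′ ends of nlp-40, a neuropeptide gene, and rcor-1 had 225, 134.5 and 94.7. Of the weaker carriers, chrIV:2774549-2775042 had 114.9, 75.6 and 42.99. The carrier at chrV:10049260-10049549 had 79.1 in the pooled list, 46.5 in replicate 1 and only a candidate, of 34.0, in replicate 2.

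Shorter words within or near these motifs were also counted. ACGCAG, which is part of AGACGCAG, occurred in 32 of 190 distal regions, or 16.8% (12.2 to 22.8%), in 1.32% of flank windows and in 3.27% of distal candidates outside the lists. The share was 20.6% (14.6 to 28.3%) on the autosomes and 8.47% (3.67 to 18.3%) on X, intervals that overlap. GAGAGA occurred in 53, or 27.9% (22 to 34.7%), in 5.79% of flank windows and in 8.20% of those candidates. Its share was 35.1% (27.5 to 43.6%) on the autosomes and 11.9% (5.87 to 22.5%) on X, intervals that do not overlap. In promoter regions it occurred in 21.6% (17.7 to 26.2%) and in introns in 30.2% (23.4 to 37.99%). GTTCGA, a word of the tRNA gene's internal promoter, occurred in 4.74% (2.51 to 8.76%) of distal regions, in 3.78% of distal candidates outside the lists and in 31.6% (25.7 to 38.1%) of the regions near small RNA genes. The median GC content of the distal regions was 47.5%, against 33.4% in their flanks and 38.6% in all distal candidates, and the words above are richer in G and C than the flanks, a difference whose part in the shares was not tested.

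**Figure D4:**
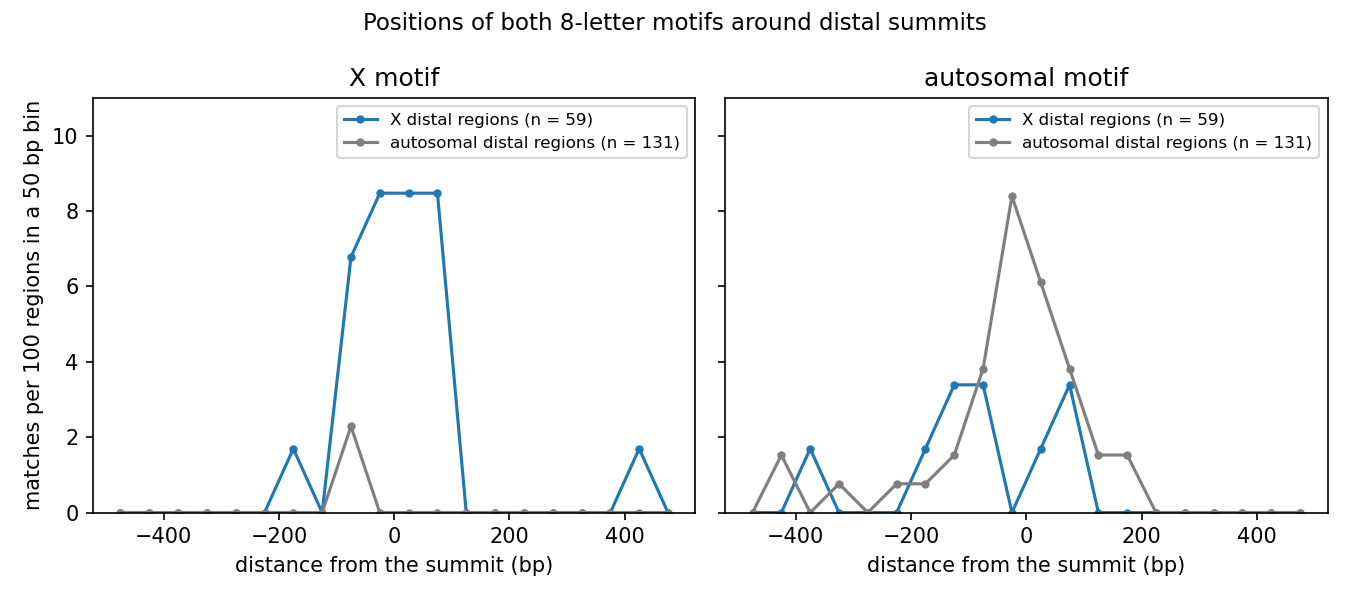
Matches per 100 regions in 50 bp bins by distance from the summit, for the X motif on the left and the autosomal motif on the right, in the 59 X and 131 autosomal distal regions. Of the 21 matches of the X motif at X regions 19 lie within 100 bp of the summit, at up to 8.47 matches per 100 regions, and the autosomal motif peaks at 8.397 next to autosomal summits.

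The position between genes differed between X and the autosomes. Of the 131 autosomal distal regions, 57 lay within 1000 bp downstream of a 3′ end, or 43.5% (35.3 to 52.1%), against 24.2% of the autosomal distal sequence and 27.6% of the autosomal distal candidates. On X, 13 of 59 did so, or 22.03% (13.4 to 34.1%), with 19.1% of the sequence and 21.2% of the candidates inside that interval. Between convergent genes, whose 3′ ends face each other, lay 23 of the 59 X distal regions, or 39.0% (27.6 to 51.7%), against 12.5% of the X distal sequence and 12.9% of the X distal candidates. On the autosomes it was 20 of 131, or 15.3% (10.1 to 22.4%), with 17.6% of the sequence. The X share was 33.3% (22.2 to 46.6%) without the cluster of 5 regions described below, and 56.5% (36.8 to 74.4%) among the 23 X regions in the list of replicate 2. Of the 10 strongest X regions, 6 lay between convergent genes. Divergent genes enclosed 8 of the X regions, or 13.6% (7.03 to 24.5%), against 33.5% of the X distal sequence. This split was chosen after the values were seen.

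**Figure D5:**
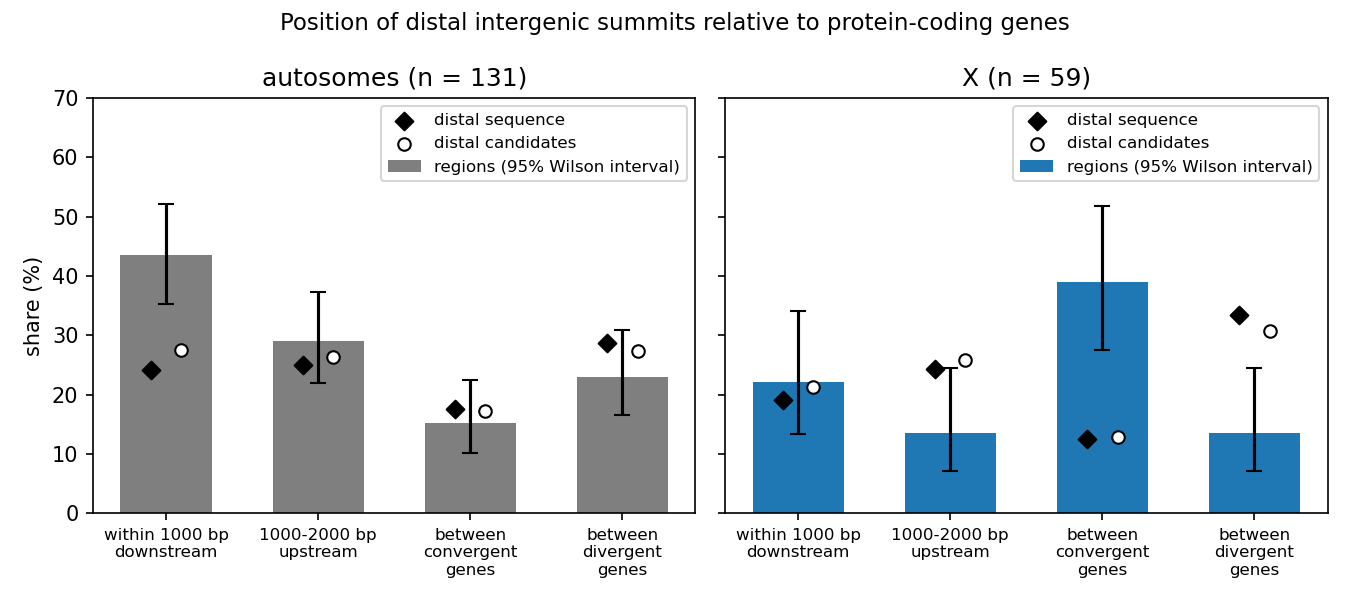
Share of distal regions in each position relative to protein-coding genes, as bars with 95% Wilson intervals for the autosomes (left, 131 regions) and X (right, 59 regions), with distal sequence as diamonds and distal candidates as circles. The bar for 1000 bp downstream on the autosomes (43.5%) and the bar for convergent genes on X (39.0%) lie above both of their backgrounds.

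Of all 190 distal regions, 46 lay between 1000 and 2000 bp upstream of a 5′ end, or 24.2% (18.7 to 30.8%), close to 24.9% of the distal sequence, and 87 lay neither there nor within 1000 bp downstream. The median distance to the nearest protein-coding gene was 1388 bp, against 1870 bp for distal sequence and 1720 bp for candidates. Of the 131 autosomal regions, 55.7% (47.2 to 64.0%) lay in the chromosome arms, the outer 30% at either end, against 64.2% of candidates and 63.0% of the sequence, of which the interval holds the second and not the first. In regions with a single-copy share of 50% or more the arm share was 53.4% (44.4 to 62.3%), under both backgrounds. It was 67.1 to 69.6% within either replicate's own list, above the background, with intervals that hold it.

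The 5 regions farthest from any protein-coding gene were 8356 to 9911 bp away. The farthest, chrI:11664878-11665178, lay 9911 bp from F11A6.16 and 10907 bp from kpc-1, a gene for a proprotein convertase. Its signals were 88.2 in the pooled list and 44.8 in replicate 1, with a candidate of 31.9 in replicate 2. The region chrI:1296546-1296835 was 8732 bp from Y48G8AR.3 and 8871 bp from dapk-1, a death-associated protein kinase gene. It had 121.5 in the pooled list and 84.6 in replicate 1, with a replicate 2 candidate of 34.0. Neither region was in the list of replicate 2. Both held AGACGCAG. The pair at chrIV:14033203-14033492 and chrIV:14034107-14034370 between irld-55 and Y37A1B.7 had replicate 1 signals of 59.1 and 43.1 and replicate 2 candidates of 31.0 and 16, the first of them inside an annotated non-coding RNA gene. The remaining one was the weakest copy of the first repeat family.

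Annotated non-coding genes or pseudogenes held the summits of 27 distal regions, or 14.2% (9.95 to 19.9%), against 13.7% of the distal sequence. Over all chromosomes the share was thus that of the background. On X it was 11 of 59, or 18.6% (10.7 to 30.4%), against 9.03% of the X distal sequence. The interval holds the 13.2% of X distal candidates, and 4 of the 11 are in the cluster described below. The 27 summits were 20 in genes of the class ncRNA, 6 in pseudogenes and 1 in a lincRNA, a long intergenic non-coding RNA. No summit lay inside a miRNA or rRNA gene. The lincRNA was linc-128, whose region at chrV:1151334-1151664 lay 4792 bp from cmd-1, the calmodulin gene, and had a signal of 213 in the pooled list, 120 in replicate 1 and 102 in replicate 2. The largest cluster, taken as summits within 5000 bp of the next, held 5 regions over 2689 bp of X between C30E1.4 and F52G3.8, and 4 of their summits lay inside the ncRNA gene C30E1.9. Their candidate signals were 79.5, 55.3, 32.6, 6.58 and 83.6 in replicate 1 and 66.6, 62.6, 52.5, 46.4 and 30.9 in replicate 2. The candidates of 55.3, 6.58 and 30.9 were not in that replicate's own list. The first 4 in this order ranked alike in both replicates. The last, chrX:16932336-16932709, was the highest in replicate 1 and the lowest in replicate 2.

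The distal regions were flanked by 341 of 19973 protein-coding genes, or 1.71% of all. Of 26 developmental timing genes, 2 flanked a distal region, or 7.69% (2.14 to 24.1%), an interval whose lower bound lies above the background. This share rests on 2 genes, in a list chosen with earlier results of these data known. The region chrI:10414779-10415068 lay 151 bp downstream of blmp-1, which encodes a zinc finger transcription factor of developmental timing, with signals of 70.1 in the pooled list and candidates of 27.8 in replicate 1 and 37.98 in replicate 2. Its single-copy share was 53.6%, and it shares 36-base words with a distal region on X. The region chrI:9343783-9344072 lay 1432 bp upstream of lin-41, whose RNA-binding product represses lin-29 messenger RNA, and was in the conservative list alone with 59.7, with candidates of 29.6 and 30.5. Neither was in a replicate's own list. Of 177 cuticle collagen genes, 5 flanked a distal region, or 2.82% (1.21 to 6.44%). These were col-185, 3511 bp from one of the X motif carriers, dpy-13 at 173 bp and col-34 at 6662 bp from the same region with a signal of 66.99, sqt-3 at 397 bp (50.8) and col-118 at 1364 bp (63.7). Of 274 nuclear receptor genes 5 did so, the strongest being nhr-88, 2545 bp downstream of a region with 209 in the pooled list, 109 in replicate 1 and 93.9 in replicate 2. The lists of 87 homeobox genes (2), 59 hedgehog-related genes (1), 32 moulting and apical matrix genes (1), 22 seam cell and hypodermal regulators (1), 79 ribosomal protein genes (1) and 26 vulval and uterine genes (0) gave counts whose intervals all hold the background.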

How the data were processed

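The deposited files, in ce11 coordinates per the labels, were 4 thresholded and 4 ranked lists of peaks by IDR: 1 of each kind for each replicate and 2 of each kind from both replicates. Scores (up to 1000) and signal are the authors' deposited values; from the values, a score of 830 stands for an IDR of 0.01. The aligner and caller were not given in the sources used here, and the manifests name further inputs of unstated role, per the file headers. Overlapping rows (1 bp or more) of the thresholded lists were merged, keeping the summit of the row with the highest signal. Gene models were those of Ensembl (release 115, WBcel235) and sequence from RefSeq. Locations were taken in the order small RNA, promoter, distal, exonic, intronic. Shares have 95% Wilson intervals; medians have binomial order-statistic intervals. No test was run, as there is 1 group. The distal sequence was sampled at 1 position in 200. The regions, gene lists and comparisons were chosen with earlier results of these data known. The named regions were the 20 strongest, those flanking timing genes, the 5 farthest from genes, the largest cluster and those inside miRNA, lincRNA or rRNA genes; others were chosen after their values were seen. Scripts used Python 3.11.15 with numpy 2.4.6, pandas 2.3.3, scipy 1.17.1 and matplotlib 3.10.9, and were tested on simulated data. The closing section gives the effect of 124 alternatives. The intervals cover counting error over regions only.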

Additional observations from a re-analysis of the deposited data

Results flagged for a closer look

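A signal appeared in data outside the comparisons above: 18 distal candidates of the pooled ranked list reached the score of the threshold but lay in no thresholded list. All 18 had a single-copy share under 50%. Their signals ran from 65.5 to 1603, with a median of 114.9. The highest, at chrX:15810981-15811161 between Y7A5A.7 and Y7A5A.8, exceeded the strongest listed distal region, and 13.3% of its 36-base words were found once in the genome. Why they were left out of the thresholded lists is not stated in the sources used here.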

How the results depend on the processing

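Of 124 alternatives, 103 stayed within the interval of the reported value (for counts, within 1.5 times) and 21 moved, and 12 of the 124 were added after the data were seen. The share between 1000 and 2000 bp upstream became 40.7% with a promoter of 500 bp and 0% with one of 2000 bp, by construction. The share of distal candidates kept fell to 1.11% at an IDR under 0.005. The correlation between replicates was 0.57 with the pooled list alone and 0.60 with the conservative list alone, which also gave a median signal of 85.3 and a share in both replicates' lists of 33.3%. The share within 500 bp downstream, in place of 1000 bp, was 27.9%. Leaving out each replicate, so that the other's own list stood alone, gave 70 to 104 distal regions, 127 to 191 flanking genes, a median signal of 109 to 139, a correlation of 0.80 to 0.86, a share with ACGCAG of 21.1 to 22.9%, arm shares of 67.1 to 69.6%, an X motif share of 25.8 to 34.8% and a convergent share on X of 48.4 to 56.5%; the own lists hold fewer and stronger regions. No paired analysis was possible because the study has 1 group. Depth is unknown, so it cannot be said which differences between the replicates' lists it limits.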
